A study of Mus musculus with 10 samples.

Results

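Mucins and goblet cell genes are 10 genes of the mucus layer: the gel-forming mucins Muc2, Muc5ac and Muc5b, the membrane mucins Muc1 and Muc4, and 5 products of mucus-secreting cells, Agr2, Clca1, Tff3, Spink4 and Zg16. They were 10 of the 18193 genes with a probe set of 1 symbol, and each was read by whichever of its probe sets had the highest mean. The members were chosen by measured values: they were listed with their DCI, KGF and combined-treatment differences on these same arrays known, so those differences, and counts of members past the threshold in them, are given below as a description and support nothing. Tests are read for the change from day 17 to day 24, although it uses these same arrays. Tests of whether a treatment difference depended on the day or on the other treatment are built from these same known differences. They too are given as a description.

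Embryonic stem cells of C57BL/6 mice were differentiated in culture for 8, 17 or 24 days. At day 8 there was a control and a KGF condition (keratinocyte growth factor, an epithelial mitogen). At days 17 and 24 there were 4 conditions each: control, KGF, DCI, and KGF with DCI. DCI is taken as the dexamethasone plus raised cAMP of the study's title, which asks whether it and KGF support differentiation into alveolar type II cells, the surfactant cells of the lung. Each of the 10 conditions had 1 array of total RNA, and nothing says how many cultures an array stands for, which stem cell line was used or what share of the cells was epithelial. A p-value here measures only the residual spread of an additive model of day, KGF and DCI, in which array noise and departures from additivity are mixed.

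Mucus is a gel of very large O-glycosylated proteins. Gel-forming mucins fold and cross-link in the endoplasmic reticulum, receive their sugars in the Golgi and wait in granules until goblet cells release them, while membrane mucins stay on the surface of most wet epithelia. Muc2 is the mucin of intestinal goblet cells, Muc5ac that of airway goblet cells and the gastric surface, and Muc5b that of airway mucous and club cells. In healthy mouse lung goblet cells are few, and glucocorticoids and cAMP, which DCI is taken to bring, act on many epithelial genes through the glucocorticoid receptor and CREB.

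The sequences before the gene starts are shown because the members were listed together for one treatment, so that a reader can see what these starts have in common. Promoter entries of RefSeq (GRCm38.p6) matched 4 of the 10 members: Muc1 (chr3:89228806-89229055), Muc2 (chr7:141690090-141690339), Muc4 (chr16:32735636-32735885) and Agr2 (chr12:35992675-35992924), each the 250 bases before the start on the plus strand, written 5′ to 3′. Capitals mark, on either strand, the letters TATAA (TATA box), GATAA (GATA factors), CACCTG (an E-box) and GGGCGG (SP and KLF factors), 4 motifs added after the data were seen.
Muc1: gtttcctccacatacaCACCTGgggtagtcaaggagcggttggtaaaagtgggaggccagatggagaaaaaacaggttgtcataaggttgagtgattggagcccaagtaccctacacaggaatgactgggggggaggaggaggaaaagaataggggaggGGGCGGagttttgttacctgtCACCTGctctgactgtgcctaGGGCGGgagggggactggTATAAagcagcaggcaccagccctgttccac
Muc2: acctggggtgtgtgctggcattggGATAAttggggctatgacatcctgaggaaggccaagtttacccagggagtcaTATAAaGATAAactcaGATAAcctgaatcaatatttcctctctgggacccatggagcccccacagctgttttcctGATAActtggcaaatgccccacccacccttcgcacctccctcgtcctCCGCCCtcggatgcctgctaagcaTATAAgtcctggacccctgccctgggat
Muc4: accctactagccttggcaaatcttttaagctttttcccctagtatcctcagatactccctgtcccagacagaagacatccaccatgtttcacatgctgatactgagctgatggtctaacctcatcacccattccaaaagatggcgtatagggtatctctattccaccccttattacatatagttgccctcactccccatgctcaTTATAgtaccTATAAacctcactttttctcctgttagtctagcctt
Agr2: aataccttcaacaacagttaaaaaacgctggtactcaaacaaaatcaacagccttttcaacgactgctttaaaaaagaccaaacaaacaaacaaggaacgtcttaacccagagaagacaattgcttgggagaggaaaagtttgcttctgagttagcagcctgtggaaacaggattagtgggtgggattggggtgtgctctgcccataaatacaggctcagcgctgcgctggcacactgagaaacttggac

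TATAA stood 31 bases before the Muc1 start, 28 before the Muc2 start (and again at 174) and at 36 and 46 before the Muc4 start, and 22.8% of the 32851 RefSeq promoter windows of this length hold it. Muc2 also held GATAA 4 times, at 226, 168, 158 and 99 bases before the start, where 22.6% of windows hold it at least once. GGGCGG, found in 32.7% of windows, stood at 91 and 49 bases in Muc1 and at 52 in Muc2, and CACCTG, found in 17.2%, at 234 and 70 in Muc1. The 4 capitalised motifs do not overlap each other in these windows, and the Agr2 window held none of them. Another 5 motifs were searched. For the glucocorticoid receptor they were TGTTCT (single site, in 16.1% of windows) and the palindrome of that site (0.0091%). For CREB they were TGACG (the short site, 17.8%) and TGACGTCA (the full site, which contains the short one, 1.55%). The last was TGTTTAC, of FOXA factors and not of the treatment (3.17%). None of these 5 was in the 4 windows, which says only that these letters are not in these bases.

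Some members also lie side by side in the genome. In the RefSeq gene order of GRCm38.p6, Muc6, Muc2, Muc5ac and Muc5b follow each other on chromosome 7, ahead of Tollip. Muc4 neighbours Muc20 on chromosome 16, Tff3 neighbours Tff2 on chromosome 17, Agr2 neighbours Agr3 on chromosome 12, and Clca1 lies between Clca4a and Clca2 on chromosome 3. Muc6, Muc19 and Muc21 were not measured by a probe set of 1 symbol.

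Levels below are log2 expression values, always listed as control, KGF, DCI and then both treatments (control and KGF at day 8). Because RMA values depend on the probes, levels are compared between arrays of 1 gene and not between genes. The 3′ minus 5′ signal of Actb is a control for RNA and labelling quality. It was highest on the day 8 control array, at 1.05 log2 units. On the rest it was 0.54 to 0.62 with DCI and 0.46 to 0.52 without, so it went with DCI. For the control sequence dap it was 4.80 on the day 8 control and 2.68 and 2.49 on the day 17 arrays with DCI. The remaining arrays were at 1.35 to 1.82 for dap. For Gapdh the arrays with DCI (0.03 to 0.12) overlapped the others without it (-0.02 to 0.08, day 8 control 0.44). The part of this signal in the differences below was not tested. Pou5f1 and Nanog, markers of undifferentiated stem cells, lay between 3.93 and 6.24 and between 4.48 and 6.85 over the 10 arrays, with no undifferentiated culture to set them against. The RNA came from whole cultures, so fewer cells of a type and less RNA per cell cannot be told apart.

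The gel-forming mucins were high in cultures with DCI. Muc2 read 3.99 and 3.90 at day 8, 4.49, 4.69, 6.84 and 6.31 at day 17, and 5.37, 5.36, 8.51 and 7.98 at day 24. All 4 arrays with DCI lay above all 6 without it, and the pairs of matched arrays differed by 5.12-fold and 3.08-fold at day 17 and by 8.83-fold and 6.12-fold at day 24. Over the additive fit the DCI difference was 2.43 ± 0.19 (log2, SE).

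Muc5ac read 5.67 and 5.69 at day 8, 5.48, 5.68, 6.54 and 6.94 at day 17, and 5.94, 5.74, 7.75 and 8.30 at day 24. Without DCI its level stayed between 5.48 and 5.94 through the whole culture, and every array with DCI lay above that range. The DCI difference was 1.67 ± 0.20, from 2.08-fold without KGF at day 17 to 5.89-fold with KGF at day 24.

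Muc5b, the airway mucin, read 5.80 and 5.63 at day 8, 5.47, 5.33, 8.01 and 8.90 at day 17, and 6.59, 8.70, 9.19 and 10.65 at day 24. The arrays with DCI lay above those without it at each day, but the day 24 KGF array (8.70) lay above the day 17 DCI array (8.01), so the groups overlapped across days. DCI went with a difference of 2.66 ± 0.34, and its highest value, with both treatments at day 24, was 16.7-fold above the control of that day.

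**Figure D1:**
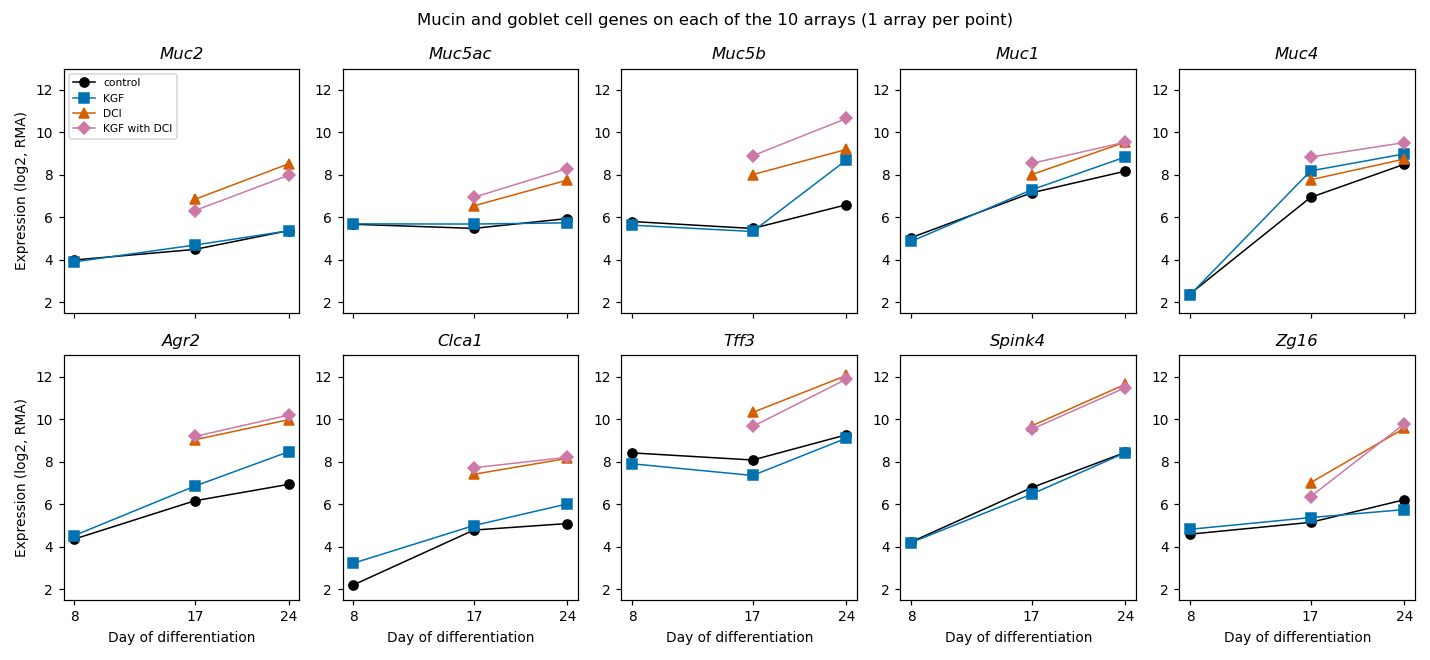
Log2 expression (vertical axis, RMA) of the 10 genes against day of differentiation (horizontal axis), 1 array per point, with lines joining the arrays of a treatment. Muc2, Muc5ac, Tff3, Spink4, Zg16, Agr2 and Clca1 have all 4 arrays with DCI above all 6 without, Muc4 goes from 2.39 at day 8 to 6.94 at day 17 in the controls, and Muc5b with KGF alone stands above its control at day 24 (8.70 against 6.59).

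The membrane mucins gave smaller DCI differences. Muc1, found on most glandular and alveolar epithelium, read 5.04 and 4.86 at day 8, 7.15, 7.29, 8.01 and 8.54 at day 17, and 8.17, 8.84, 9.54 and 9.54 at day 24. Within each day the arrays with DCI were above those without, by 1.04 ± 0.13 over the fit, but across days they overlapped. Muc4 read 2.39 and 2.35 at day 8, 6.94, 8.18, 7.76 and 8.84 at day 17, and 8.50, 8.98, 8.74 and 9.52 at day 24. Its arrays with and without DCI overlapped on both days, with KGF alone above DCI alone, and the DCI difference was 0.56 ± 0.18. A second Muc4 probe set differed by 0.50 with DCI and by 0.91 with KGF, against 0.56 and 0.90 for the main one, and the third one stayed within 2.74 to 3.27 on all arrays.

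Agr2, a protein disulfide isomerase that mucin folding in the endoplasmic reticulum depends on, read 4.36 and 4.52 at day 8, 6.16, 6.85, 9.03 and 9.19 at day 17, and 6.93, 8.47, 9.97 and 10.19 at day 24. All arrays with DCI were above all without, by 2.49 ± 0.20 over the fit, and its other probe set differed by 2.13. The 4 pairs ran from 3.30-fold (with KGF, day 24) to 8.25-fold (without KGF, day 24).

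Clca1, a metalloprotease that goblet cells secrete into mucus, read 2.19 and 3.22 at day 8, 4.78, 4.99, 7.41 and 7.71 at day 17, and 5.09, 6.01, 8.15 and 8.21 at day 24. The groups with and without DCI did not overlap, and the difference was 2.65 ± 0.16. A second Clca1 probe set stayed between 2.40 and 2.88 on all arrays, so the Clca1 values rest on 1 probe set, and averaged over both the DCI difference was 1.41.

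Tff3, the trefoil peptide of goblet cells that protects mucosal surfaces, read 8.41 and 7.90 at day 8, 8.08, 7.35, 10.32 and 9.66 at day 17, and 9.26, 9.11, 12.06 and 11.89 at day 24. The lowest array with DCI (9.66) lay 0.39 above the highest without (9.26), and the DCI difference was 2.53 ± 0.13. Spink4, a goblet cell peptide of the Kazal inhibitor family, read 4.22 and 4.19 at day 8, 6.78, 6.47, 9.68 and 9.52 at day 17, and 8.44, 8.42, 11.64 and 11.49 at day 24. Its DCI difference of 3.06 ± 0.07 lay in the 4 pairs between 7.50-fold and 9.22-fold.

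Zg16, a lectin of intestinal mucus that binds bacterial cell walls, read 4.59 and 4.82 at day 8, 5.14, 5.37, 7.01 and 6.35 at day 17, and 6.21, 5.74, 9.57 and 9.78 at day 24. All DCI arrays were above all others, by a gap of 0.15 that the day 17 array with both treatments set against the day 24 control. The pairs ranged from 1.98-fold with KGF at day 17 to 16.4-fold with KGF at day 24, and the fitted difference was 2.56 ± 0.39. The other Zg16 probe sets differed by 2.78 and 4.08 with DCI.

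Counted over the members, 9 of 10 (all but Muc4) passed an adjusted p under 0.05 for higher expression with DCI in limma's additive fit, against 7.27% of all 18193 genes that passed higher and 8.09% that passed lower. The members' median difference was 2.51 against -0.01 for all genes. All 10 were higher with DCI in each of the 4 matched pairs, and the share of all genes that were was not counted. In 7 every DCI array lay above every array without it, against 3.16% of all genes. With the day 8 control array left out, the count was 10. These counts follow from how the members were listed and nothing is read from them.

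The cultures with both treatments share the control arrays with the DCI and KGF differences. All 10 members were at least 2-fold above the control of the same day, at day 17 (median difference 1.86, lowest 1.21) and at day 24 (median 2.83, lowest 1.02), against 1.76% and 2.2% of all genes. At day 24 the largest of these differences was that of Muc5b (16.7-fold), followed by Zg16 (11.9-fold) and Agr2 (9.57-fold), and the smallest that of Muc4 (2.03-fold). There is 1 array per condition, so these folds have no replicate check.

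**Figure D2:**
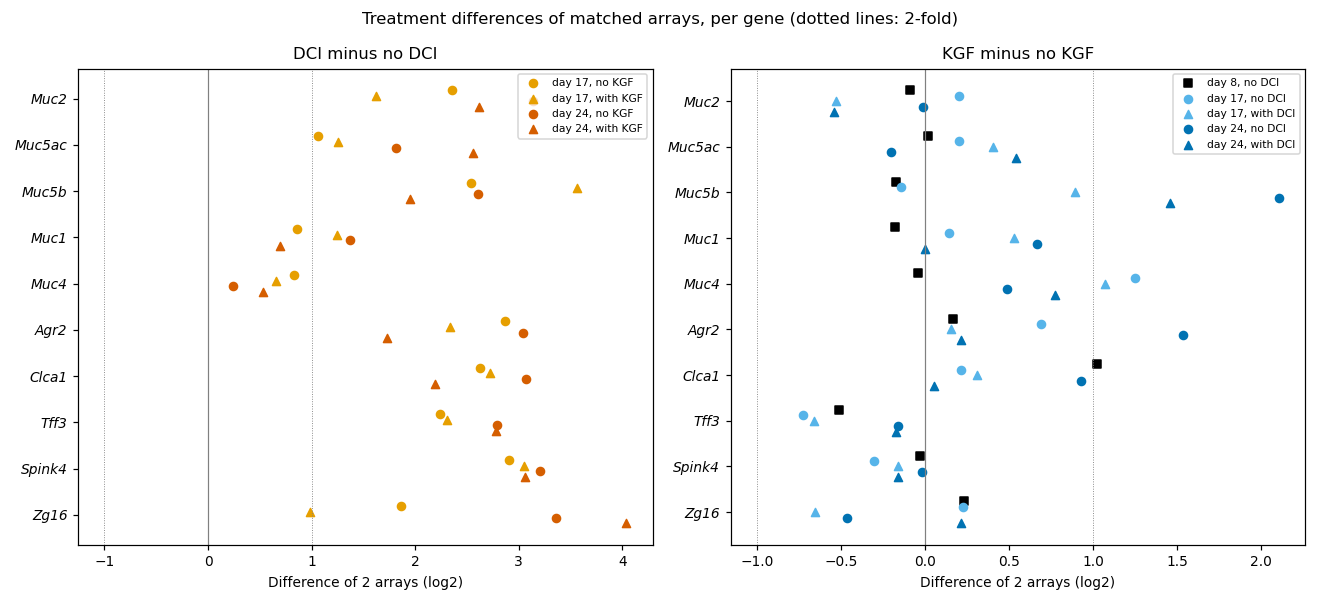
Differences between matched arrays (log2, horizontal axis) for each of the 10 genes, DCI minus no DCI in the left panel (4 pairs) and KGF minus no KGF in the right panel (5 pairs), with dotted lines at 2-fold. All DCI differences lie above 0, with Muc4 the lowest, while the KGF differences lie on both sides of 0, with Muc5b at day 24 at 2.11.

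With KGF the members did not move together. In the additive fit over all 10 arrays 0 of 10 passed, as did 1 gene in all (0.0055%), with 5 members and 1466 genes at an unadjusted p under 0.05. In the 8 arrays of days 17 and 24, where 0.352% of genes passed higher and 0.0055% lower, 1 member was past the threshold, Muc4, with a difference of 0.90 ± 0.13. As for DCI, these counts follow from how the members were listed and nothing is read from them. Muc4 was higher with KGF in the 4 pairs of those days, by 2.38-fold and 2.10-fold at day 17 and by 1.40-fold and 1.71-fold at day 24, and read 2.39 and 2.35 without and with KGF at day 8. The second Muc4 probe set gave 0.91.

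Muc5b gave the highest KGF difference, 1.08 ± 0.31 over the same 8 arrays, and its pairs spread widely: -0.14 without DCI and 0.89 with it at day 17, and 2.11 and 1.46 at day 24. Agr2 differed by 0.65 ± 0.20 with KGF, most of it in the day 24 pair without DCI (2.90-fold), Clca1 by 0.38 ± 0.14 and Muc1 by 0.33 ± 0.11. Tff3 was lower in all 5 pairs, by -0.43 ± 0.13 over days 17 and 24, and Spink4 was lower in all 5 as well, by -0.16 ± 0.07. Muc2 (-0.22 ± 0.20), Zg16 (-0.17 ± 0.41) and Muc5ac (0.24 ± 0.21) had differences close to or under their errors. Agr2 and Clca1 were the 2 members higher with KGF in all 5 pairs. The day 8 pair of Clca1 rests on a low value (2.19) on the day 8 control array, the one with the highest Actb 3′ minus 5′ signal. The second Agr2 probe set was lower with KGF at day 8, by -0.31.

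The change from day 17 to day 24 was compared over 4 matched pairs (control, KGF, DCI, both). It uses the arrays that gave the treatment differences, and its contrast is separate from theirs only where day and treatment add. For Zg16 the rise was 1.06 and 0.37 without DCI and 2.56 and 3.43 with it. The tests of this change are therefore not free of how the members were listed. In the control pair the members' median rise was 1.04 (lowest 0.31), against -0.02 for all genes. All 10 members passed higher at day 24 in limma's fit, against 14.8% of all genes higher and 22.5% lower, and their median rise was 1.25 against -0.01 for all genes. Each of the 10 was higher at day 24 in each of the 4 pairs. The share of all genes that were was not counted, so nothing is read from this. Between 6 and 8 members were at least 2-fold higher in a pair, against 2.53% to 2.65% of all genes. Each day and treatment had 1 array, so any difference between the arrays other than the age of the cells cannot be told apart from it.

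Among the gel-forming mucins, Muc5b rose by 1.86 ± 0.34 (adjusted p = 0.00169), Muc2 by 1.22 ± 0.19 (adjusted p = 0.000708) and Muc5ac by 0.77 ± 0.20 (adjusted p = 0.012). The Muc5b rise was uneven, at 10.3-fold with KGF alone and between 2.17-fold and 3.37-fold in the other pairs. Muc5ac went up by 1.38-fold in the controls and 1.04-fold with KGF, and by 2.32-fold and 2.56-fold in the cultures with DCI. The membrane mucins Muc1 and Muc4 rose by 1.27 ± 0.13 (adjusted p = 3.5e-05) and 1.00 ± 0.18 (adjusted p = 0.00159).

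The rises of the goblet cell products ran from Spink4, at 1.88 ± 0.07 (adjusted p = 1.74e-07) and between 3.16-fold and 3.89-fold in every pair, to Clca1, at 0.64 ± 0.16 (adjusted p = 0.0103). Tff3 rose by 1.73 ± 0.13 (adjusted p = 3.92e-06), Zg16 by 1.86 ± 0.39 (adjusted p = 0.00364) and Agr2 by 1.08 ± 0.20 (adjusted p = 0.0017). Zg16 was the least even of them, at 1.30-fold with KGF alone and 10.8-fold with both treatments. With the mean of its probe sets in place of the main one, the Clca1 value was 0.33 and no longer passed (adjusted p = 0.0519, against 0.00575 to 0.0519 over all 17 alternatives).

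**Figure D3:**
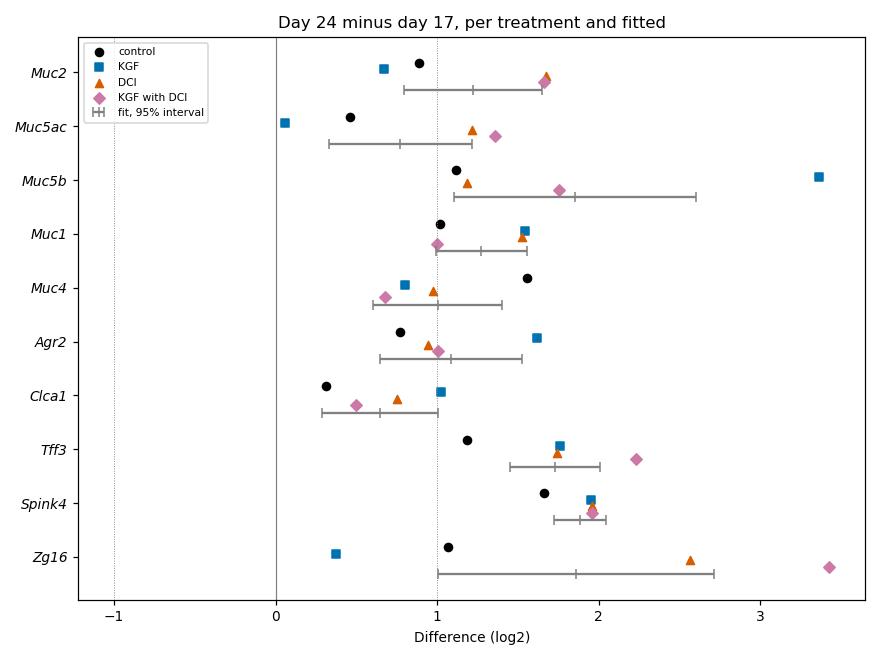
Day 24 minus day 17 (log2, horizontal axis) for each gene in each of the 4 treatments, with the fitted value and its 95% interval in grey and dotted lines at 2-fold. All points lie to the right of 0, the 4 points of Spink4 lie close together, and those of Muc5b and Zg16 spread over the widest ranges.

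From day 8 to day 17 the members parted into groups. This contrast uses the arrays without DCI, which also set the DCI difference, so its values and counts are a description and nothing is read from them. Of the 10, 5 were past the threshold higher and 1 lower, against 21.4% of all genes higher and 21% lower. Muc4 was 5.28 ± 0.24 higher at day 17 by its main probe set, whose day 8 values (2.39 and 2.35) lie at the low end of the scale, so no fold is given. Its second probe set was higher by 1.48 between the controls and 3.49 with KGF, and the mean of its probe sets by 2.67. Spink4 was higher by 2.38 ± 0.10, Muc1 2.27 ± 0.17, Clca1 2.19 ± 0.21 (1.12 averaged over its probe sets) and Agr2 2.12 ± 0.26. Muc2 (0.42), Zg16 (-0.02), Muc5b (-0.12) and Muc5ac (-0.36) were not past it. Tff3 was lower by -0.57 ± 0.17, and without either day 8 array, at -0.53 and -0.61, it was not past the threshold.

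Whether the DCI difference itself changed from day 17 to day 24 was tested as an interaction in the 8 arrays of those days, where 0.533% of all genes passed with a larger DCI difference at day 24. This interaction is made of the DCI differences known when the members were listed, so its values are a description and support nothing. Zg16 passed: with DCI it was 1.43 higher at day 17 and 3.70 higher at day 24, a difference of 2.28 ± 0.29 (adjusted p = 0.00419, 0.0028 to 0.0578 over 14 alternatives). Its other probe sets gave 1.73 and 1.54, and the mean of the 3 probe sets gave 1.85 and did not pass. The DCI difference of Muc5ac was 1.16 at day 17 and 2.18 at day 24 (interaction 1.03 ± 0.24, adjusted p = 0.0614), and that of Muc2 1.99 and 2.88 (interaction 0.89 ± 0.27, adjusted p = 0.137). Tff3 had an interaction of 0.51 ± 0.19 (adjusted p = 0.223) and Muc5b of -0.77 ± 0.54 (adjusted p = 0.56). With 95% intervals of 0.26 for Spink4 up to 1.21 for Muc5b on either side, the interactions that did not pass are bounded only loosely.

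No gene passed for KGF by DCI (0%) or for KGF by day (0%) in limma's fit, with 267 and 932 genes at an unadjusted p under 0.05. For KGF by DCI 1 member was among these, Agr2, at -0.93 ± 0.26 (adjusted p = 1): KGF went with 1.61-fold and 2.90-fold more Agr2 without DCI and with 1.11-fold and 1.16-fold more with it. For Muc5b this interaction was 0.19 with a 95% interval of 1.55 on either side. For KGF by day the members were Muc5b (1.41 ± 0.44), Tff3 (0.53 ± 0.21) and Muc4 (-0.53 ± 0.19), each with an adjusted p of 0.944. These interactions are likewise made of differences known when the members were listed, and their intervals do not show that the treatments add up exactly for any member.

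The members varied together across the arrays. Over the 45 pairs of members the median Pearson r was 0.87 on 10 arrays (0.52 to 0.99) and 0.89 on the 8 arrays of days 17 and 24 (0.56 to 0.99). Agr2 and Clca1 had the highest value on 10 arrays (0.99), and Muc4 with Muc5ac the lowest (0.52). On the 8 later arrays the highest was Tff3 with Spink4 (0.99) and the lowest Muc4 with Muc2 (0.56). The points share their arrays and the same few conditions, and the members were listed with their DCI differences known. These values are therefore a description and carry no p.

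For each member the genes with the most similar pattern were looked up among 6187 genes with a range of at least 1 log2 unit. Being the highest of many values over 10 arrays, they too are a description. Spdef, the transcription factor that goblet cell differentiation depends on, was the first for Muc5ac (r = 0.987 on 10 arrays, 0.985 on 8). Muc5b was closest to Gclc and Nqo1, enzymes of glutathione synthesis and quinone reduction (r = 0.969 and 0.963), followed by the club cell secretory protein Scgb1a1 (r = 0.963). Clca1 had Fbln1, Bmper and Olfm4, an intestinal crypt glycoprotein, in its first 3 (r = 0.989, 0.983 and 0.981), Tff3 had Cyp2d22, Slc43a3 and Reg4 (r = 0.984, 0.974 and 0.971), and Spink4 had Dpep1, Hilpda and the eotaxin Ccl11 (r = 0.995, 0.993 and 0.991). For Muc2 they were Chrdl2, Scara5 and Zfas1 (r = 0.991, 0.988 and 0.983), for Zg16 Olfml2b, Ctla2a and Cyp2d22 (r = 0.994, 0.987 and 0.982), and for Agr2 Ndrg2, Dhrs7 and Fbln1 (r = 0.986, 0.985 and 0.980). The membrane mucins had Pglyrp1, Camk2n1 and Dap (Muc1, r = 0.996, 0.996 and 0.995) and Mapk13, Spint2 and Myh14 (Muc4, r = 0.997, 0.995 and 0.994).

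Other genes of mucus formation, from lists written with earlier results of these data known, were read beside the members. As given above, 7.27% of all genes passed higher and 8.09% lower with DCI. From day 17 to day 24, 14.8% passed higher and 22.5% lower. Of 5 other mucins measured, 2 passed higher with DCI and none lower (median 0.18 against -0.01 for all genes), the membrane mucins Muc13 (0.92 ± 0.14, a second probe set at 0.49) and Muc3 (0.84 ± 0.15). Muc15 and Muc16 differed by -0.42 ± 0.16 and -0.40 ± 0.24, which did not pass. From day 17 to day 24, 3 of the 5 rose, with Muc3 at 2.05 and Muc13 at 0.62.

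Of 24 other goblet cell products, 9 passed higher with DCI and none lower (median 0.21). The trefoil peptides Tff1 and Tff2 were higher by 3.75 ± 0.11 and 2.45 ± 0.14, Fam3b by 1.66 ± 0.35 and the guanylin precursor Guca2a by 1.62 ± 0.16. Fcgbp, which binds to the mucin gel, was higher by 1.07. Agr3, the neighbour and relative of Agr2, differed by -0.05 with DCI and by 1.09 with KGF, and Ang4 by -0.03 with DCI. Retnlb read 5.99 on the day 24 DCI array and between 3.22 and 3.94 on the others.

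Of 21 enzymes of mucin O-glycosylation, 14 passed higher and 1 lower with DCI (median 0.44). Gcnt3, which builds the branched core of mucin sugars, was higher by 2.17 ± 0.19 (other probe sets 1.37 and 1.01), and Fut2, which adds terminal fucose, by 1.63 ± 0.16 (another at 0.53). B4galnt2 was higher by 1.58 ± 0.14, with its other probe sets at 0.81, 0.41 and -0.23, and the sulfotransferase Chst4 by 1.00 ± 0.21. From day 17 to day 24, 12 of the 21 rose and 1 fell, with Gcnt3 at 1.82 and Fut2 at 1.34.

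Of 11 goblet cell transcription factors, 7 passed higher with DCI and none lower (median 0.48). Spdef read 5.18 and 5.18 at day 8, 4.97, 5.37, 6.30 and 6.20 at day 17, and 5.23, 5.31, 7.23 and 7.60 at day 24, so that all DCI arrays lay above all others, by 1.61 ± 0.20 over the fit. Atoh1, which sets the secretory lineage of the gut, was higher by 1.30 ± 0.28, Foxa3 by 1.13 ± 0.10, Creb3l4 by 0.88 ± 0.14 and Foxa2 by 0.48 ± 0.12, while Foxa1 differed by -0.01 ± 0.10. From day 17 to day 24 4 of the 11 rose and 1 fell, Spdef by 0.63 and Foxa2 by 0.57 among the rises.

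Genes of folding and of granule exocytosis gave fewer calls of higher expression with DCI than the lists above. Among all genes 7.27% passed higher and 8.09% lower. Of 12 genes of stress sensing and folding in the endoplasmic reticulum, 2 passed higher and 1 lower with DCI (median -0.01): the mucosal stress sensor Ern2 by 1.26 ± 0.16 and Dnajb9 by 0.28 ± 0.08, against Sdf2l1 at -0.26 ± 0.07, with its widespread relative Ern1 at 0.29 ± 0.09 not passing. Of 10 genes of granule exocytosis none passed higher and 2 lower (median 0.07), among them the granule protein Vamp8 at -0.39 ± 0.07. Of 14 genes of the type 2 cytokine pathway, which drives mucous metaplasia in airways, 5 passed higher and none lower (median 0.31). Among these, Ccl11 was higher by 1.89 ± 0.14 and Alox15 by 0.94 ± 0.22, while the cytokine Il13 itself differed by -0.01 ± 0.10 and read between 3.53 and 3.85 on all arrays.

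**Figure D4:**
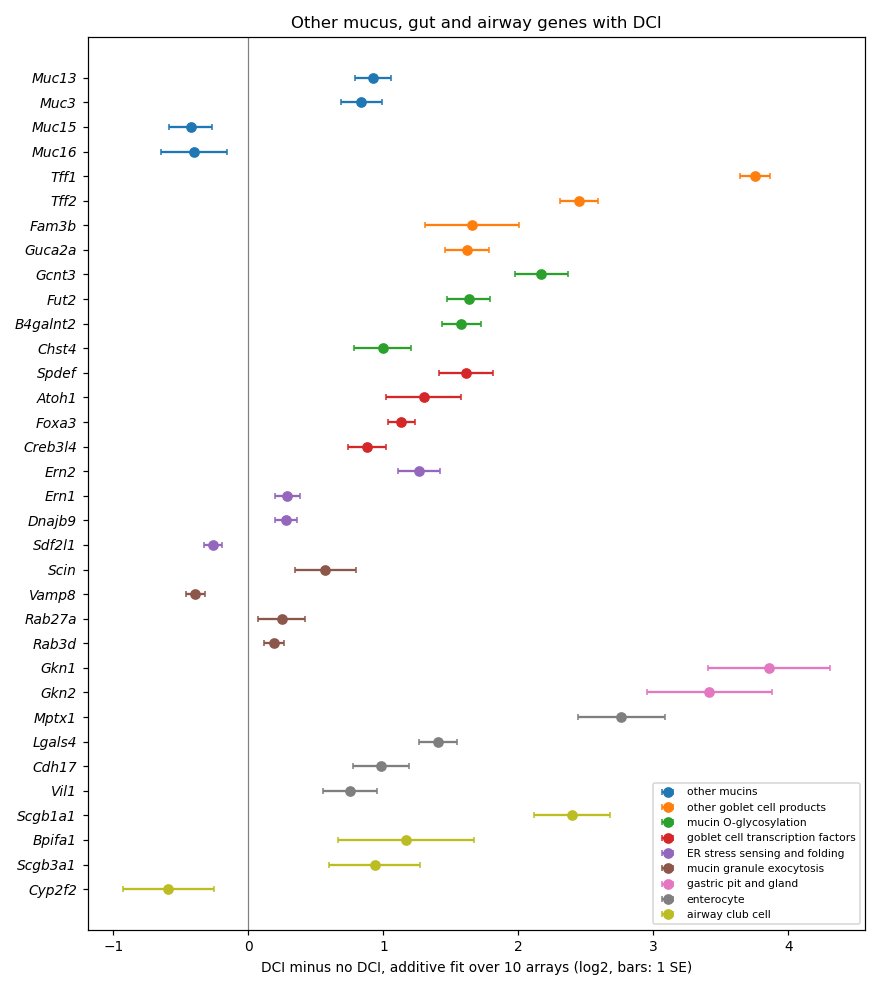
DCI minus no DCI (log2, horizontal axis, additive fit over 10 arrays, bars 1 SE) for up to 4 genes of each list drawn, coloured by list. Drawn are the lists of mucus formation and the gastric, enterocyte and club cell markers. The type 2 cytokine, identity factor, general epithelial, alveolar type II, pluripotency and housekeeping lists are not drawn. Nor are the macrophage markers, whose median was -3.08. Gkn1 (3.85) and Tff1 (3.75) lie farthest to the right, the 4 glycosylation enzymes lie between 1.00 and 2.17, and the exocytosis genes lie between -0.39 and 0.57.

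Markers of several epithelia moved with DCI beside the members, and their part in the members' differences was not tested. Of 9 gastric pit and gland markers 6 passed higher and none lower (median 2.04), Tff1 and Tff2 among them, which also count among the goblet cell products above. The others included Gkn1 at 3.85 ± 0.45 and Gkn2 at 3.41 ± 0.46. The gastric list's mean level was 5.98 and 5.52 without DCI against 7.16 and 7.68 with it at day 17, and 6.60 and 6.99 against 9.54 and 9.18 at day 24. Of 11 enterocyte markers 4 passed higher and none lower (median 0.25), with Mptx1 at 2.76 ± 0.32 and Lgals4 at 1.40 ± 0.14. Fabp1 (-0.43 ± 0.34) and Fabp2 (-0.59 ± 0.41) went the other way and did not pass. Fabp1 read 10.36 and 9.36 without DCI against 10.78 and 9.83 with it at day 17. At day 24 it read 9.15 and 8.93 against 7.91 and 7.55. Of 8 club cell markers 1 passed higher, Scgb1a1 at 2.40 ± 0.28, while Cyp2f2 at -0.59 ± 0.34 did not pass. Of 7 alveolar type II markers 1 passed higher, Napsa at 1.01 ± 0.10.

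Of 14 general epithelial markers 10 passed higher with DCI and none lower (median 0.41), with Epcam at 0.56 ± 0.07 and Cdh1 at 0.33 ± 0.05. Their mean level was 8.90 and 9.36 without DCI against 9.25 and 9.64 with it at day 17, and 9.41 and 9.76 against 9.92 and 10.20 at day 24. From day 17 to day 24, 12 of the 14 rose and none fell, beside the rise of the 10 members. All 10 macrophage markers passed lower with DCI (median -3.08). Their mean level was 9.50 and 9.50 without DCI against 7.01 and 6.86 with it at day 17, and 9.59 and 9.16 against 5.87 and 5.55 at day 24. The part of either marker list in the members' values was not tested.

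Factors that set regional identity gave mixed values. Of 7 gut and lung identity factors, 2 passed higher with DCI and none lower (median 0.05). Cdx2, the intestinal factor, was higher by 0.87 ± 0.19 (a second probe set at 0.15) while it fell by 0.95 from day 17 to day 24, and Hnf4a was higher by 0.66 ± 0.13. Nkx2-1, the lung factor, read between 4.45 and 5.00 on all arrays and differed by 0.04 ± 0.13 with DCI. Of the housekeeping genes, 2 of 7 passed lower and none higher with DCI, B2m at -0.39 ± 0.06 and Actb at -0.22 ± 0.04.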

How the data were processed

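Total RNA of 10 conditions was labelled and hybridised to Affymetrix arrays (labels' protocols). The values the authors deposited are on the log2 scale and cover 45101 probe sets. Per the submitters' processing notes they come from RMA. Its version and joint normalisation of the arrays stay unstated in the sources used. RMA's quantile step sets differences relative to the other genes of an array. Differences of dim genes are compressed in RMA values. Names came from GEO's annotation of the platform: 34945 had 1 symbol, 932 several, 9160 none and 64 were controls. The number of arrays limits the precision.

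Differences were fitted in limma 3.58.1 (R 4.3.3) with day, KGF and DCI as terms over 10 arrays (5 residual degrees of freedom), and interactions one at a time over the 8 arrays of days 17 and 24 (3 degrees of freedom). Variances were moderated with a mean trend. Benjamini-Hochberg adjustment ran over the 18193 genes, and passing means an adjusted p under 0.05. The fits were also run on simulated data, with 200 changed genes, all other genes flat, and independent noise. In the real arrays many more genes change with day, so that run does not vouch for the p-values given here. The members and lists were chosen with earlier results of these data known. Named were all members, up to 4 genes of each other list with the largest DCI difference among those passing in any of 7 contrasts, and 13 fixed genes. A few list genes (Fcgbp, Agr3, Ang4, Retnlb, Fabp1, Fabp2) were named after their values were seen. Alternatives were other variance priors, a filter on the lowest 40% of genes, the mean of probe sets, a second normalisation, other thresholds, the 8 later arrays alone, and leaving out each array in turn. Figures were drawn with matplotlib 3.10.9.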

Additional observations from a re-analysis of the deposited data

Results flagged for a closer look

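The DCI difference of Zg16, the mucus lectin, was larger at day 24 than at day 17 by 2.28 on the log2 scale (limma interaction term, adjusted p = 0.00419). The members were listed with their DCI differences known, so this result is a description and not independent support. Its 3 probe sets gave 2.28, 1.73 and 1.54, and their mean gave 1.85 and did not pass. At day 17 the pairs were 3.64-fold without KGF and 1.98-fold with it, and at day 24 10.3-fold and 16.4-fold. It was the 1 member of the 10 that passed this test, but genes of other lists passed it too. Of 24 other goblet cell products 1 passed larger (Fam3b, 2.12) and 0 smaller. Of 11 goblet cell transcription factors 1 passed larger (Spdef, 1.06) and 1 smaller. Of 9 gastric pit and gland markers 2 passed larger, as did 2 of 21 enzymes of mucin O-glycosylation. Of 8 club cell markers 1 passed in each direction. Of 10 macrophage markers 7 passed in the negative direction, as did 1 of 11 enterocyte markers and 1 of 14 type 2 cytokine genes. Over all genes 0.533% passed larger, and the share in the negative direction was not counted. Groups of 1 array allow no search for outlying replicates.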

How the results depend on the processing

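Across the alternatives no value that passed changed its direction. The count of members passing for DCI stayed between 7 and 10 of 10, for day 24 minus day 17 between 8 and 10, and for day 17 minus day 8 between 5 and 6. The lowest counts for DCI and day 24 minus day 17 include the filter on the lowest 40% of genes, which left 8 members to test (Muc2 and Clca1 were not). For KGF the count was 0, and 1 (Muc4) in the 8 arrays of days 17 and 24 alone. Leaving out each array gave 0 to 1, with 1 without either day 8 array. For DCI by day the count was 1 (Zg16), 0 with each gene's probe sets averaged, 2 with a robust prior, a second quantile normalisation or an adjusted p under 0.10 (Muc5ac in each), and 1 to 3 on leaving out each array, with 3 without the day 17 control (Muc2 and Muc5b joined) and 2 without the day 24 control (Muc5ac). Without the day 17 control the interaction of Muc5b was -1.58. The counts for KGF by DCI and KGF by day were 0 in all alternatives run. With both treatments at least 2-fold over control, 9 to 10 members were counted. Muc4 passed for DCI without either day 8 array, at the same difference of 0.56. Of the single values under an alternative, 1096 kept their side of the threshold, 13 came to pass and 7 no longer passed.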
